A study of Mus musculus with 4 samples.

Results

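Genes for collagens, laminins, integrins, matrix proteases and their partners were read out allele by allele in the gonadal fat pad of F1 mice. The members were taken by the symbols that the allele count tables list: every autosomal gene with an exonic SNP whose symbol begins as a collagen (Col and a number), laminin (Lama, Lamb, Lamc), integrin (Itga, Itgb), Adam or Adamts, Mmp, Timp, fibrillin (Fbn), fibulin (Fbln, Efemp), Ltbp, lysyl oxidase (Lox), thrombospondin (Thbs) or Igfbp gene. The rule gave 100 genes out of 8016 on chromosomes 1 to 19. They hold 654 counted SNPs and 456773 of the 16199907 counted reads, and 85 of the 100 had a read in all 4 pools while 14 had under 10 reads in all.

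The mice were crosses of C57BL/6J (B) and DBA/2J (D), so that each animal carries 1 B and 1 D copy of every autosomal gene in the same cells. BxD and DxB are the reciprocal crosses, with the mother's strain written first, and all animals ate chow. RNA was pooled before sequencing, from 3 animals for BxD female, 2 for DxB female, 3 for BxD male and 3 for DxB male, so the spread between single animals cannot be seen. The labels give an age of 8 weeks, and the study's methods give an older age. A value below is a number of reads that carry the B base or the D base at SNPs, and it depends on how many SNPs a gene has, so levels are not compared between genes. Whole tissue was used, in which fewer cells of a type and less RNA per cell cannot be told apart.

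In fat, adipocytes sit in a mesh of fibrillar collagens and a basement membrane of laminins and network collagens, which fibroblast-like stromal cells, endothelial cells and the adipocytes themselves secrete. Lysyl oxidases cross-link collagen and elastin, fibrillins and fibulins build elastic microfibrils, and the latent TGF-beta binding proteins (Ltbp) tether TGF-beta to them. Integrins are the cell surface receptors that bind this matrix. Zinc proteases of the MMP, ADAM and ADAMTS families cut matrix proteins or shed proteins from the cell surface, and TIMPs inhibit them. Remodelling of this network accompanies growth of the fat pad.

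For 2 of the 4 pools the GEO label and the file name name different crosses and sexes, and the X-linked reads go against the labels. D reads made up 1.17% of the reads at informative X-linked SNPs in the pool labelled DxB female and 42.4% in the pool labelled BxD male, against 45.4% in the BxD female pool and 82.5% in the DxB male pool. A male of a D mother has only a D copy of the X, yet the DxB male pool had 1357 B beside 6415 D reads there. The source of these B reads was not tested, and the pool is taken as male in the results by sex. The file names give the pool labelled DxB female as BxD male and the pool labelled BxD male as DxB female. Pools are therefore called by their labels here, every result that needs cross or sex is given under both identities, and the comparison of B with D alleles, which needs neither, comes first. The 4 pools held between 3420217 and 4349725 counted exonic reads, of which 2.21% to 3.14% fell on the 100 genes. D reads were 45.8% to 47.0% of all counted reads, and the log2 ratios below are relative to this after TMM scaling. The adipocyte marker genes with exonic SNPs (Lep, Lpl and Cidec, 3 of 8 listed) summed to 38836 to 57342 CPM, counted reads of both alleles relative to the pool's total after TMM scaling, and the lymphocyte genes (Cd3e and Cd3g, 2 of 5 listed) to 1.21 to 3.36 CPM. Lpl gave most of the adipocyte sum (34503 to 48114 CPM). These sums depend on the SNPs of each gene, so they compare pools and not lists.

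The sequences below show where the reads of called genes were counted, for 10 of the 11 genes that passed the strain test (Thbs4 is not shown). Each is the mm9 reference, which is the B strain's genome, on the plus strand around the most-read counted SNP of the gene. The capital letter is the SNP, at position 15 of 29 counted from the 5′ end.
Igfbp7: gcacacgcacacggCgagggtcgcgggac
Igfbp3: gcagcgcgcaagtcAggcagcagccgcag
Timp2: gcgcgctgggggccTgggtccggctgctg
Col28a1: tgacctgtcattgtTtgtgtactagaatg
Mmp11: cacagatatggctgTgggtctcttacatg
Fbln7: cacagcgcgcgcttTtcctcctcttgctg
Col4a3bp: taggcctcctcgctGagcgtgtaactata
Itgav: atagaggcaagagcGcaatcctgtacgtg
Adamts7: ccagcctgcccgccGgaccgtccctcttt
Col5a2: gctcattgtcgataTgtctgggcttctgt

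The SNPs in coding exons are those of Igfbp7 (chr5:77836701-77836729, C15G from B to D), Igfbp3 (chr11:7113562-7113590, A15G), Fbln7 (chr2:128689822-128689850, T15G), Itgav (chr2:83641979-83642007, G15T) and Adamts7 (chr9:90083168-90083196, G15A). Those in untranslated or non-coding exon sequence of GENCODE M1 are those of Timp2 (chr11:118216410-118216438, T15C), Col28a1 (chr6:7948204-7948232, T15A), Mmp11 (chr10:75386647-75386675, T15G), Col4a3bp (chr13:97407232-97407260, G15C) and Col5a2 (chr1:45432901-45432929, T15C). The most-read SNP is not always the one that sets the call: the Col4a3bp window had 136 B and 149 D reads, and the Itgav window had 267 and 229, with an interval that includes 50%. The listed B base equals the reference base at all 304574 autosomal SNP positions of the files. The D base is as the files list it and was not checked against DBA/2J sequence here, so at a SNP with next to no D reads a B-to-D difference in the DNA is taken from the listing alone.

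The first question was which of the genes carry a difference between their B and D copies within the same cells. With an edgeR quasi-likelihood test on the 8 allele libraries and Benjamini-Hochberg adjustment over all 8133 genes tested, 11 of the 100 genes were called at an adjusted p under 0.05. Over all genes 1442 were called, 17.7% of those tested. B was higher in 9 of the 11 (12.9% of all genes) and D in 2 (4.81% of all genes). The median log2 ratio of D to B was 0.04 over the 100 genes and -0.02 over all genes.

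Both alleles of a pool come from the same animals, and with the pool as a block the same test called 28 of the 100 genes, 16 with B higher and 12 with D higher. Over all genes 26.9% were then called (16.1% B higher, 10.8% D higher). The 28 hold all 11 genes called without the block. Adjusted p-values below are those without the block unless the block is named. Their spread includes differences in a gene's level between pools, which both alleles share, so it is not the spread of the D share alone.

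**Figure D1:**
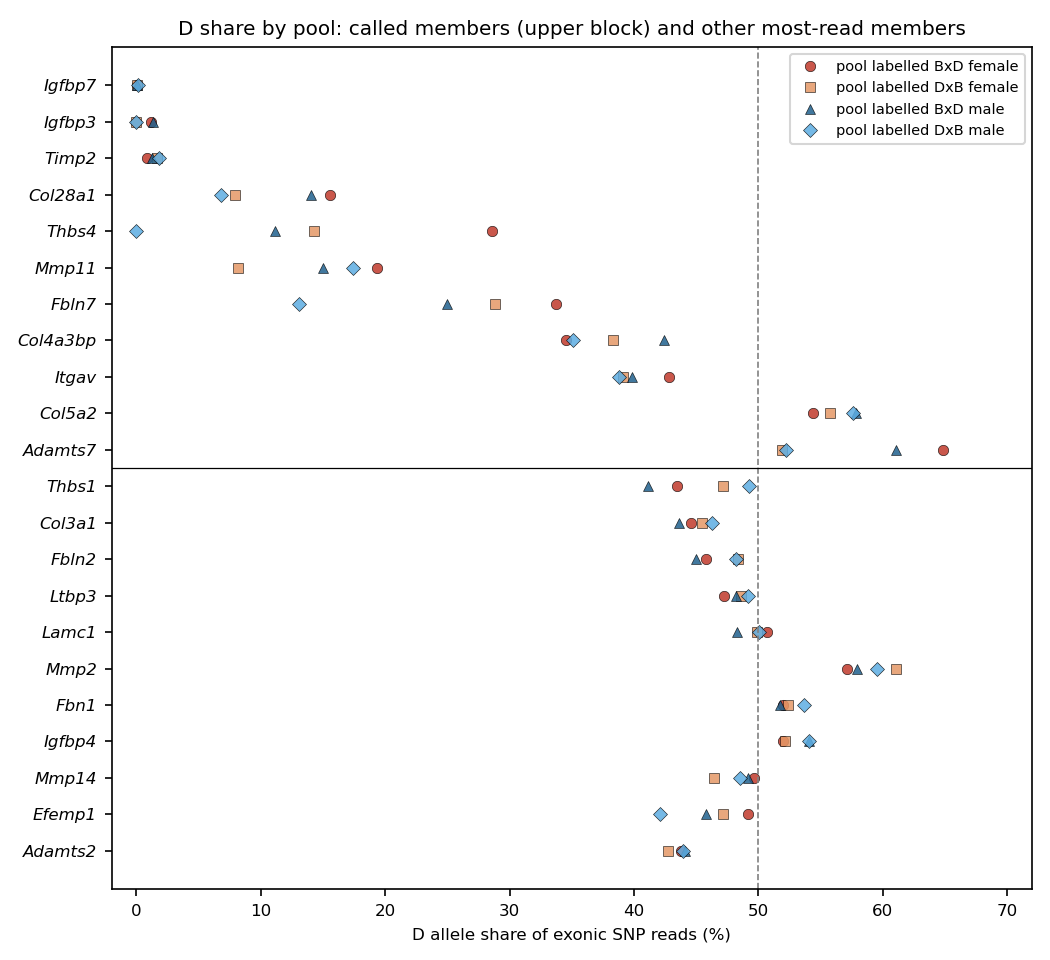
D allele share of the exonic SNP reads of a gene (x axis, %) in each of the 4 pools (points), for the 11 called genes (upper block) and for the other genes among the 12 most read (lower block). Igfbp7, Igfbp3 and Timp2 lie under 2% in every pool and Mmp2 lies between 57.1% and 61.1%.

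Among collagens, 1 of 21 genes was B higher (Col28a1), 1 was D higher (Col5a2) and 19 were not called. Col28a1 encodes a collagen with von Willebrand A domains that is best known from peripheral nerve. Its B and D reads were 298 and 55 in the pool labelled BxD female, 139 and 12 in that labelled DxB female, 165 and 27 in that labelled BxD male and 96 and 7 in the DxB male pool. B led in every pool, by a log2 ratio of -2.67 ± 0.43 (SE, adjusted p = 0.00086), with a D share of 11.1% ± 4.37 (SD, n = 4 pools). All 17 counted SNPs had more B than D reads, and 4 of its 5 exons were called, from the 3′ untranslated region to the 5′ part of the gene on chromosome 6.

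Col5a2 encodes the alpha2 chain of type V collagen, which is built into type I fibrils and sets their width. Its B and D reads were 661 and 788, 538 and 679, 533 and 731, and 588 and 800 in the same order of pools. D led in each of them (log2 0.50 ± 0.15, adjusted p = 0.045, D share 56.4% ± 1.64), and 4 exons were called with the block, all D higher. Of its SNPs with 20 or more reads, 4 of 11 had a 95% Wilson interval wholly above 50% and none wholly below. The call was lost when B and D libraries of a pool were given a common library size, when SNPs with a neighbour within 50 bp or SNPs with under 1% of reads from 1 allele were left out, and when the pool labelled BxD female, DxB female or BxD male was left out.

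Col3a1, the alpha1 chain of type III collagen and the most-read collagen here (38755 reads), had D shares of 44.6%, 45.5%, 43.6% and 46.3%. It was not called without the block (log2 -0.16 ± 0.17, adjusted p = 0.62) and was called B higher with it (adjusted p = 0.014). Its reads do not all lean alike, since a single SNP with 4190 B and 2036 D reads is the most one-sided and the remaining SNPs gave 47.4% D. Col1a2, the alpha2 chain of type I collagen, had a D share of 49.6% ± 1.46 and was called in neither fit.

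Among laminins none of 8 genes was called without the block. Lama5, the alpha5 chain of basement membrane laminins, had D shares of 40.7%, 40.6%, 40.3% and 42.9% (log2 -0.39 ± 0.15, adjusted p = 0.12, and 0.0021 with the block). All 20 of its counted SNPs had more B than D reads and 3 of its 18 exons were called, each B higher. Lamc1, the gamma1 chain shared by most laminins, had a mean share of 49.7% ± 1.02 over 25779 reads and was called in neither fit (adjusted p = 0.61, and 0.054 with the block). Lamb3, the beta3 chain of epithelial laminin, was D higher with the block only (log2 0.57 ± 0.16, adjusted p = 0.048), on 277 reads.

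Among the 10 elastic fibre genes Fbln7 was the called one, with B higher. Fbln7 encodes a fibulin that binds cells and matrix. B and D reads were 51 and 26, 42 and 17, 69 and 23, and 40 and 6, so B led in all 4 pools (log2 -1.40 ± 0.32, adjusted p = 0.009), and all 18 SNPs had more B reads. With the block, Fbn1 (fibrillin-1, the main microfibril protein) and Fbln1 (fibulin-1, a basement membrane and elastic fibre protein) were D higher.

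Fbn1 had D shares of 52.0%, 52.4%, 51.7% and 53.7% (log2 0.27 ± 0.03 with the block, adjusted p = 0.002, and 0.28 ± 0.31 without, adjusted p = 0.63). Fbln1 had shares of 56.2%, 60.8%, 59.5% and 63.2% (log2 0.70 ± 0.08, adjusted p = 0.0018 with the block and 0.29 without). Neither gene had a pool under 50%. Fbln2, Ltbp3 and Efemp1, read 36686, 34047 and 11680 times, were called in neither fit, with mean D shares of 46.8% ± 1.69, 48.3% ± 0.82 and 46.1% ± 3.00.

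Of the thrombospondins, secreted glycoproteins that bind cells, matrix and TGF-beta, Thbs1 was the most-read of all 100 genes, with 114923 reads. Its D share was 43.5%, 47.2%, 41.1% and 49.2%, and of 21 SNPs 18 had an interval wholly below 50% and 2 wholly above, where all counted reads of a pool were themselves 45.8% to 47.0% D. Its SD over pools (45.2% ± 3.65) was the largest of the 12 most-read genes, and the gene was called in neither fit (log2 -0.09 ± 0.37, adjusted p = 0.92, and 0.24 with the block). Thbs4 was called B higher (log2 -2.29 ± 0.65, adjusted p = 0.03) from 27 reads, 5 B and 2 D, 6 and 1, 8 and 1, and 4 and 0 by pool, and lost the call with DESeq2 and when any pool was left out. Thbs2 had D shares of 53.8%, 58.8%, 51.6% and 60.1% at a single SNP and was D higher with the block only (adjusted p = 0.024).

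Of the 6 IGF binding protein genes, whose products carry insulin-like growth factors or, for Igfbp7, bind matrix, 2 were called. Igfbp7 had 6015 B and 2 D reads, 4041 and 2, 5573 and 1, and 3291 and 5 in the 4 pools. The D share over the pools was 0.063% ± 0.060 (SD, n = 4) and the log2 ratio -10.67 ± 0.32 (adjusted p = 7.8e-10). Igfbp3, the main carrier of IGF in blood, had 167 B and 2 D reads, 61 and 0, 147 and 2, and 49 and 0, where 0 of 61 and 0 of 49 reads allow a D share of up to 4.92% and 6.12%. Its log2 ratio was -6.41 ± 0.61 (adjusted p = 1.0e-05).

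Both counted Igfbp7 SNPs lie in the first part of the coding sequence. The SNP in the printed window had 11558 B and 0 D reads, and that at position 77836604 had 7362 and 10. A listed SNP next to the latter, at 77836605, gives C for both strains, with 7696 reads counted for each. Without the SNPs that have 20 or more reads and under 1% from 1 allele, the remaining count of Igfbp7 is that uninformative position, and its log2 ratio was 0.09 (adjusted p = 0.83).

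Igfbp4 had D shares of 52.0%, 52.2%, 54.1% and 54.1% over 13888 reads. It was called D higher with the block (log2 0.30 ± 0.04, adjusted p = 0.0023) and not without it (adjusted p = 0.16). Igfbp5 (47.1% ± 0.38) and Igfbp2 (54.3% ± 10.8) were called in neither fit.

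Of the 9 MMP genes, Mmp11 was called, B higher. Mmp11 encodes stromelysin-3, a protease of stromal cells that is set free in active form. B and D reads at its single SNP were 121 and 29, 56 and 5, 51 and 9, and 38 and 8 (log2 -2.24 ± 0.44, adjusted p = 0.0035), with B ahead in every pool. The authors' annotation lists this SNP as intronic, although it is given an exon and GENCODE M1 places it in one. With exonic SNPs taken by that annotation, Mmp11 could not be tested. With the block, Mmp28 was also B higher, with shares of 38.7% to 40.8% (adjusted p = 0.0019).

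Mmp2, the gelatinase A that degrades denatured collagen and basement membrane collagen, leaned to D at high depth. B and D reads were 4454 and 5936, 1902 and 2986, 2155 and 2965, and 1611 and 2371, so D led in all 4 pools (58.9% ± 1.76). The gene was not called without the block (log2 0.62 ± 0.26, adjusted p = 0.15), was called with it (0.64 ± 0.05, adjusted p = 0.00037), and was also called without the BxD female pool (log2 0.68, adjusted p = 0.0021). By exon, 5 of 11 exons were called without the block, each D higher, and with the block 10 exons were D higher and 1 was B higher.

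Within Mmp2 the D share ran from 41.2% to 68.3% over its 17 SNPs. The intervals of 12 SNPs lay wholly above 50% and those of 2 wholly below, at position 95364326 (1222 B and 857 D reads) and at 95377011 (771 and 600) on chromosome 8. Mmp14, the membrane-bound protease that activates the Mmp2 proenzyme, had shares of 49.6%, 46.5%, 49.1% and 48.5% and was called in neither fit. Mmp15, another membrane-bound MMP, was D higher with the block only (adjusted p = 0.016).

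**Figure D2:**
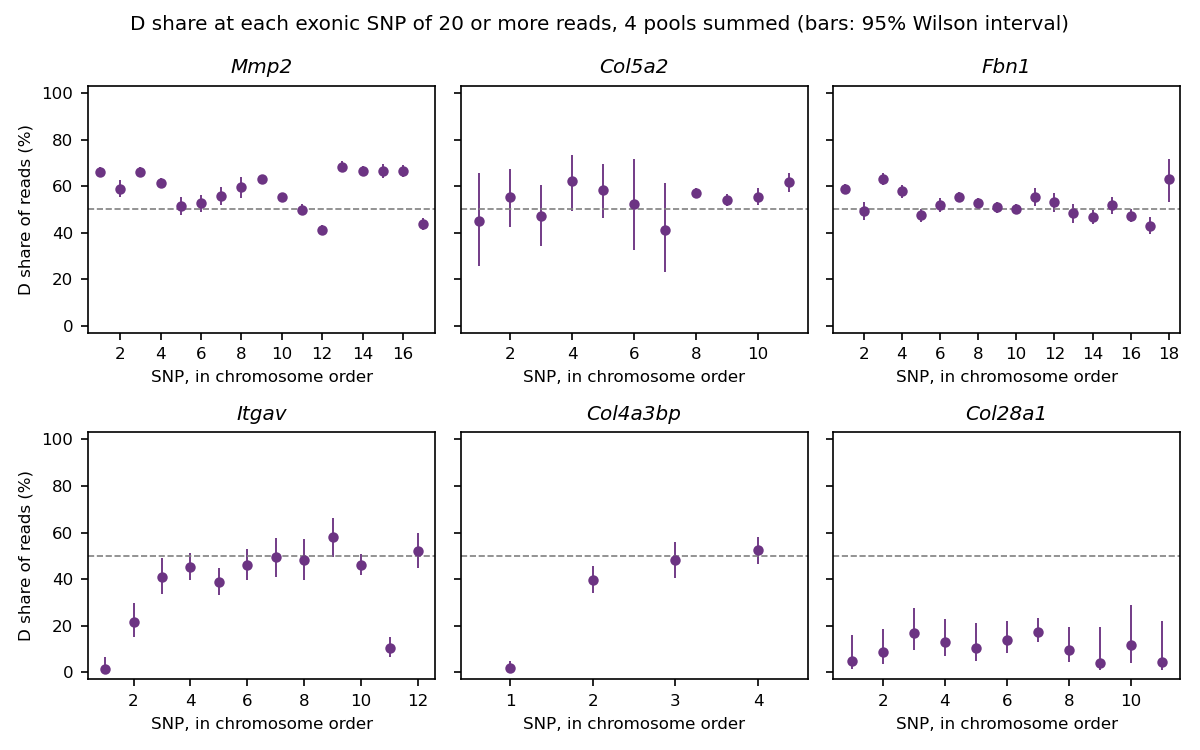
D share of the reads (y axis, %) at each exonic SNP with 20 or more reads, in chromosome order (x axis), with the 4 pools summed and bars for the 95% Wilson interval. In Mmp2 most SNPs lie above 50%, in Col28a1 all 11 lie under 20%, and in Itgav and Col4a3bp single SNPs near 0 stand beside SNPs near 50%.

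None of the 12 ADAM genes, a family that includes sheddases of the cell surface, was called without the block. With it, Adam17 (the TNF-alpha converting enzyme) and Adam23 (an integrin-binding member without protease activity) were D higher, and Adam9 and Adam33 were B higher. Adam17 had D shares of 51.7%, 51.6%, 52.7% and 51.5% (log2 0.23 ± 0.04, adjusted p = 0.0071). Its exons went both ways: the 3′ exon had 2086 B and 2539 D reads (adjusted p = 0.0022 with the block) and an inner exon had 344 and 142 (adjusted p = 0.00018). Adam9 had shares of 44.4%, 40.9%, 42.2% and 42.5% (adjusted p = 0.0059).

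Of the 16 ADAMTS and ADAMTS-like genes, secreted proteases of procollagen and proteoglycans and their relatives, Adamts7 was called, D higher. B and D reads were 64 and 118, 77 and 83, 51 and 80, and 54 and 59 (log2 0.57 ± 0.18, adjusted p = 0.049), and 6 of 7 SNPs had more D than B reads. The call was lost in 11 of 18 other settings, among them leaving out any pool. Adamts2, which removes the amino-terminal propeptide of fibrillar procollagens, had shares of 43.8%, 42.7%, 44.1% and 43.9% and was B higher with the block (adjusted p = 0.0042). Its SNP at position 50417022 of chromosome 11 had 370 B and 8 D reads, and the rest of the gene gave 45.6% D.

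Timp2, an inhibitor of MMPs that also takes part in the activation of Mmp2, had 592 B and 5 D reads, 356 and 6, 544 and 7, and 386 and 7. The D share was 1.39% ± 0.43 and the log2 ratio -6.07 ± 0.23 (adjusted p = 4.1e-09). A single SNP in the 5′ untranslated region, in the printed window, gave 1849 B and 15 D of these reads. The other 3 SNPs of Timp2 are listed under another gene as well and gave 25.6% D, and on them alone the call was lost (log2 -1.38, adjusted p = 0.30). Neither lysyl oxidase gene was called, and the single SNP of Loxl3 lists the same base for both strains.

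Of 10 integrin genes, Itgav was called, B higher. It encodes the alphaV subunit, which pairs with several beta subunits to bind vitronectin, fibronectin and latent TGF-beta. B and D reads were 398 and 298, 367 and 236, 341 and 226, and 309 and 196 (log2 -0.45 ± 0.10, adjusted p = 0.008), a call that was lost without the pool labelled DxB female or the DxB male pool. The difference was not even along the gene: its 3 called exons held 85 B and 1 D, 98 and 27, and 177 and 20 reads, and 7 of the 12 SNPs had intervals that include 50%. Itgb1, the beta1 subunit shared by many matrix receptors, had a share of 45.3% ± 2.73 and was called in neither fit.

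Single exons were also called in Itga5, a fibronectin receptor subunit, and Itgb3, a partner of alphaV. At position 103196758 of chromosome 15 Itga5 had 38 B and 0 D reads, where its other SNP gave 293 and 252. At position 104469446 of chromosome 11 Itgb3 had 45 and 0, where its other SNP gave 34 and 41, and the whole gene was called B higher without the pool labelled BxD male. These 0 counts allow a D share of up to 7.89% and 6.67%.

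Both symbols that match by name alone are no matrix genes. Col4a3bp encodes the ceramide transfer protein. It was called B higher (182 and 96, 140 and 87, 118 and 87, and 122 and 66 reads, log2 -0.62 ± 0.13, adjusted p = 0.0056) and lost the call without the DxB male pool. One coding SNP, at position 97319250 of chromosome 13, had 181 B and 3 D reads, and the other SNPs gave 46.6% D. Itgb1bp1 encodes a cytoplasmic protein that binds the integrin beta1 tail. It had D shares of 56.7%, 58.4%, 51.0% and 58.0% and was called with the block (log2 0.48 ± 0.09, adjusted p = 0.012).

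**Figure D3:**
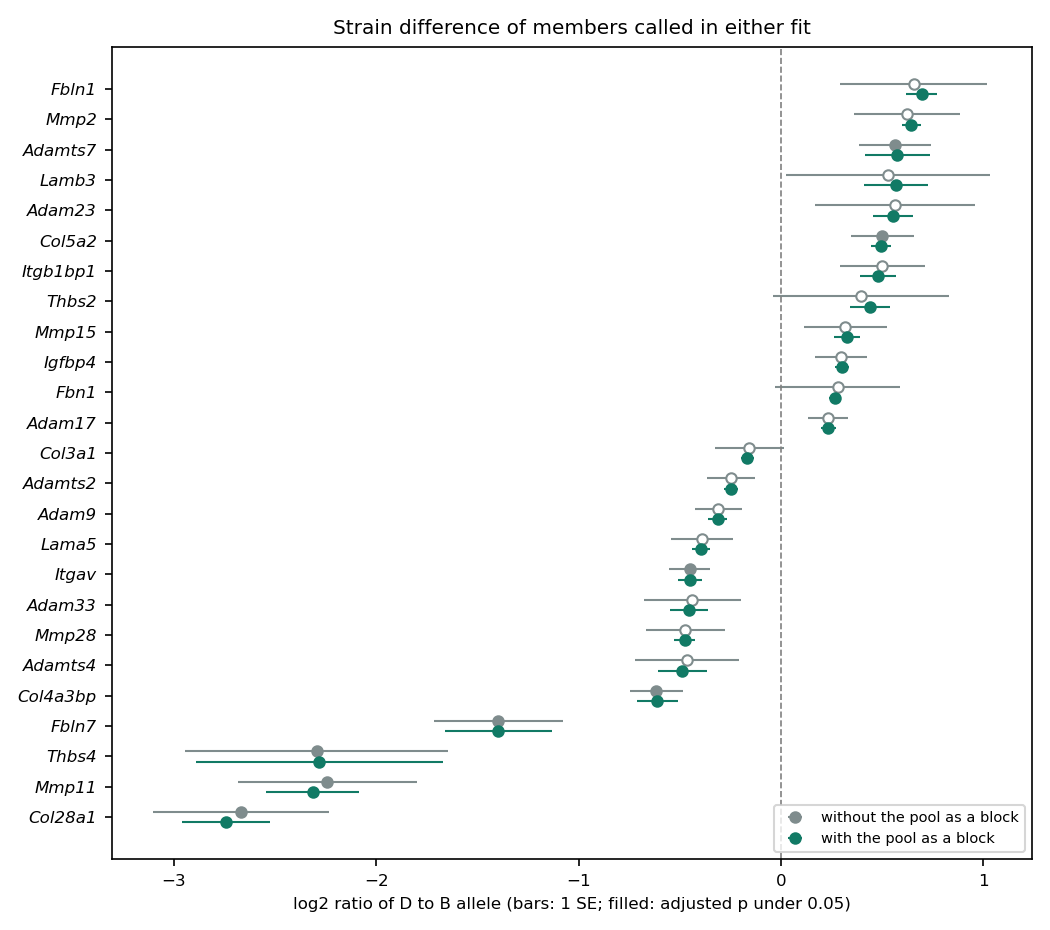
Log2 ratio of D to B (x axis, bars 1 SE) without (grey) and with (green) the pool as a block for the genes called in either fit, filled where the adjusted p is under 0.05. Igfbp7, Timp2 and Igfbp3 lie at -10.67, -6.07 and -6.41 and are not drawn.

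Most of the SNPs with the fewest D reads lay near the 5′ end of their gene. Of the 401 SNPs of the 100 genes with 20 or more reads and different bases in B and D, 10 had under 3% D reads, in Igfbp7, Igfbp3, Timp2, Itgav, Itgb3, Itga5, Adamts2 and Col4a3bp. None of the 401 had under 1% B reads. Of the 10, 8 lay within 1000 bp of the annotated 5′ end of the gene, and the median GC share of their 28 flanking bases was 75.0%. Of the 373 SNPs with 25% D reads or more, 21 lay within 1000 bp of the 5′ end, with a median GC share of 53.6%.

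Seen from the other side, 27.6% of the 29 SNPs within 1000 bp had under 3% D reads, against 0.538% of the 372 farther away. Over all genes with a gene model these shares were 18.3% of 2588 and 3.76% of 25490. The thresholds were chosen after the values were seen, so this is a description. The part of GC content and of place in these counts was not tested, nor was the listed D base at these SNPs.

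Without the SNPs that have 20 or more reads and under 1% from 1 allele, 7 of the 100 genes were called, all B higher, against 9.16% of all genes (5.83% B higher, 3.33% D higher). These were Col28a1, Col4a3bp, Fbln7, Igfbp3, Itgav, Mmp11 and Thbs4. The rule leaves in SNPs just over 1% D: 181 B and 3 D reads in Col4a3bp, 47 and 1 in Igfbp3, and 85 and 1 in Itgav. Of the 7, Col28a1, Fbln7 and Mmp11 had no SNP of 20 or more reads under 3% D. Neither of the 2 SNPs of Thbs4 had 20 reads, so the 20-read rule could not leave out any of them. With both pools of conflicting identity left out, Col28a1, Igfbp3, Igfbp7 and Timp2 were called, 4 of 97 genes tested, against 9.15% of all genes. With B and D libraries of a pool given a common library size, the median log2 ratio of all genes moved from -0.02 to -0.14. The split over all genes was then 1193 B higher and 239 D higher in place of 1051 and 391, and that of the 100 genes was 11 and 0, with Lama5 and Mmp28 added and Col5a2 and Adamts7 lost.

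By exon, 31 of 432 exons of the 100 genes were called, 25 B higher and 6 D higher, against 12.3% of all exons tested (8.85% B higher, 3.43% D higher). No gene had exons called in both directions without the block. With the block 77 exons were called (46 B higher, 31 D higher, against 18.6% of all exons, 11.7% and 6.84%), and Adam17, Lamc1 and Mmp2 then had exons called in both directions.

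Intronic SNPs give reads from other positions of the same alleles. Of the 81 genes with intronic reads, 13 were called, 10 B higher and 3 D higher, against 11.4% of all genes tested there (7.25% B higher, 4.2% D higher). Of the 13, 10 had the same sign of the log2 ratio at exonic SNPs and 3 the opposite sign (Fbn1, Fbln2 and Mmp14). Adamts5 is among the 10, but more of its exonic reads were B than D. Its larger exon by reads had 3997 B and 3959 D (log2 0.07). Its other exon was called B higher, against its intronic SNP (113 and 19, log2 -2.43, adjusted p = 8.1e-05). Mmp14 had more B than D exonic reads in every pool, and the sign of its exonic ratio changed with a common library size. Col28a1 was called at both kinds of SNP, with 26 B and 3 D intronic reads (log2 -2.78 ± 0.83, adjusted p = 0.01, and 0.058 with the block). With the block 13 genes were called at intronic SNPs, 10 B higher and 3 D higher, against 9.16% of all genes (5.48% and 3.68%), and 5 genes were called at both kinds of SNP, 4 of them with the same sign. Agreement in sign and calls at both kinds of SNP were not counted over all genes, so these counts have no background.

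**Figure D4:**
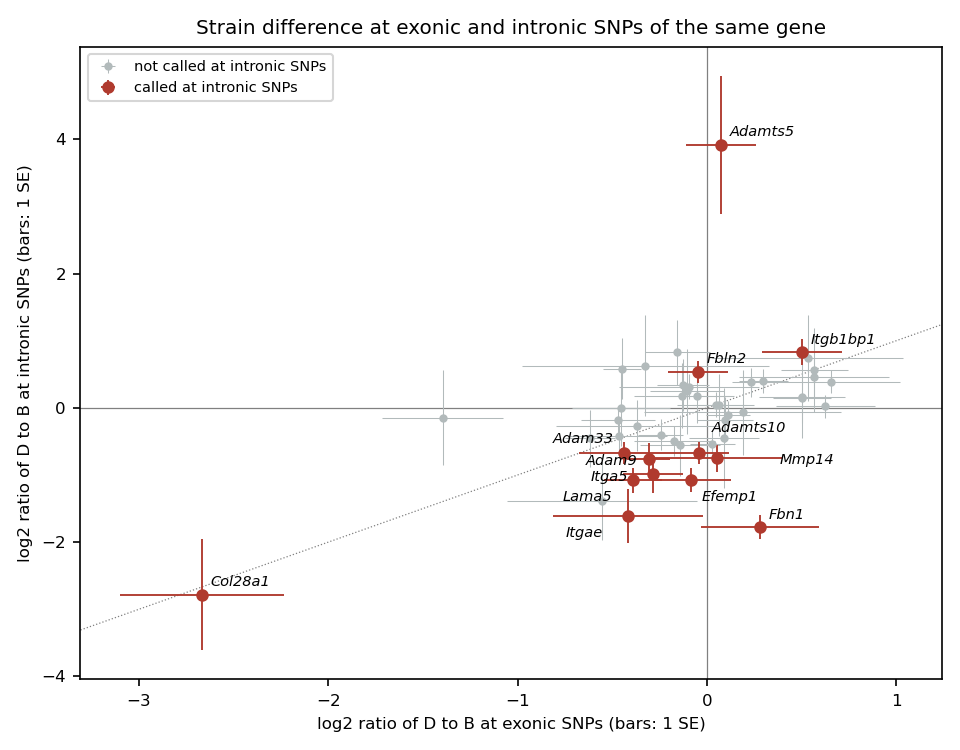
Log2 ratio of D to B at exonic SNPs (x axis) and at intronic SNPs (y axis) of the same gene, with bars of 1 SE, for 47 genes with at least 100 exonic and 20 intronic reads and an exonic log2 ratio under 4 in size. The 13 genes called at intronic SNPs are in red and the dotted line marks equal ratios. Col28a1 lies on the line and Fbn1 lies at 0.28 and -1.77.

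Fbn1 had the largest intronic log2 ratio of the 3 genes with opposite signs. Its introns had 294 B and 62 D reads in the pool labelled BxD female, 321 and 93 in that labelled DxB female, 170 and 58 in that labelled BxD male and 200 and 52 in the DxB male pool. B led in every pool (log2 -1.77 ± 0.18, adjusted p = 2.8e-20), where the exons leaned to D. The intronic difference sat mostly in a stretch of 1891 bp, chr2:125290417-125292307, whose 32 SNPs gave 666 B and 60 D reads. The other 276 intronic SNPs gave 319 and 205, or 39.1% D.

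Efemp1 (fibulin-3) was called at intronic SNPs with 813 B and 367 D reads (log2 -1.08 ± 0.18, adjusted p = 5.8e-08). A SNP listed as a splice site, at position 28754461 of chromosome 11, gave 451 and 10 of them, and the other 116 SNPs gave 362 and 357. Lama5 had 529 B and 231 D intronic reads (log2 -1.08 ± 0.19, adjusted p = 5.5e-07), the same direction as its exons. Itgb1bp1 had 239 and 391 (log2 0.83 ± 0.20, adjusted p = 0.00047), in the direction of its exons, but 142 and 217 of them fell on 1 SNP, at position 21291912 of chromosome 12, that GENCODE M1 places in an exon, and the intron gave 97 and 174.

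Fbln2 had 1338 B and 1762 D intronic reads (log2 0.54 ± 0.16, adjusted p = 0.011), with exons at 46.8% D. The lean was uneven. Each SNP of 20 or more reads from chr6:91196832 to 91200775 had 90.0% to 100% D, and those elsewhere ran from 8.0% to 81.0%. The call held in 5 of 11 other settings and was lost with DESeq2 and with at least 10 counts, among others. The other intronic calls were B higher for Mmp14, Adam9, Adam33, Adamts10, Itga5 and Itgae, with log2 ratios from -0.67 to -1.61, and D higher for Adamts5 from 1 SNP with 1 B and 20 D reads. With 1 pool left out, the intronic calls of Efemp1, Fbn1, Itgb1bp1, Lama5, Mmp14, Adam33, Adamts10 and Itgae held in every case. Those of Adam9 (lost without BxD female, labelled BxD male or DxB male), Fbln2 (labelled DxB female or DxB male), Itga5 (BxD female), Adamts5 and Col28a1 (labelled BxD male) did not. Only the calls of Efemp1, Fbn1, Itgb1bp1 and Lama5 held in all 11 settings tried. The others were lost without both pools of conflicting identity. Without SNPs of under 1% from 1 allele, Adam33 and Itgae were lost as well, and Adam33 also with DESeq2 and with at least 10 counts. In Adam33, Adamts10, Itgb1bp1, Fbln2 and Fbn1 part of the SNPs that the files give as intronic lie in exons of GENCODE M1. In Adamts10 those gave 956 B and 433 D reads, and the intron gave 882 and 642.

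The parent that gave the allele was compared in place of the strain. None of the 100 genes was called with the labels (edgeR, 1 at an unadjusted p under 0.05; DESeq2 also 0, with 1), and none over all genes either (37 at an unadjusted p under 0.05). With the file names, 4 genes of all were called (0.0492%, 0.0246% in each direction) and none of the 100, with 0 at an unadjusted p under 0.05.

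A strain difference that depends on sex was called in none of the 100 genes with the labels (0 at an unadjusted p under 0.05 with edgeR and with DESeq2), against 0.0984% of all genes with edgeR (0.0615% lower and 0.0369% higher in males) and 0.111% with DESeq2 (0.0738% and 0.0369%). With the file names 0 of all genes were called (98 at an unadjusted p under 0.05), and Col28a1, Igfbp7 and Itgae had an unadjusted p under 0.05. Col28a1 had D shares of 15.6% and 14.1% in the pools whose file names say female and 7.95% and 6.80% in those that say male. The log2 difference of male from female was -1.11 ± 0.48 (edgeR, unadjusted p = 0.035, adjusted p = 1.0).

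With both alleles added, 2 pools of each sex could be compared. With the sexes of the labels 0 of the 100 genes were called and 0 of all genes (6 and 304 at an unadjusted p under 0.05, and DESeq2 called 0 and 4, with 2 and 157 at an unadjusted p under 0.05, or 0.0492% of all genes and 0.0246% in each direction). With the sexes of the file names 10 were called, against 2.78% of all genes, 6 lower (1.25% of all genes) and 4 higher in males (1.52%). These 10 were named because of this result and not by the rule for named genes. Levels are in CPM, in the order of pools above, with the pools labelled BxD female and BxD male female by file name and the other pools male.

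Fbln1 had 353, 133, 314 and 176 CPM (log2 of male to female -1.11 ± 0.19, adjusted p = 0.0043), so both file-name females lay above both males. Mmp14 had 1287, 540, 784 and 503 (log2 -0.99 ± 0.22, adjusted p = 0.026). Thbs2 had 159, 61.2, 105 and 44.9 (log2 -1.31 ± 0.23, adjusted p = 0.0051).

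Igfbp3 had 36.1, 14.6, 36.3 and 14.9 CPM (adjusted p = 0.0092), with the pools of a file-name sex close together. Mmp9, the gelatinase B of leukocytes, had 143, 22.3, 60.6 and 25.5 (log2 -2.09 ± 0.32, adjusted p = 0.0018). Adamts3, a procollagen protease, had 13.4, 4.80, 11.9 and 4.25 (adjusted p = 0.036).

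Fbn1 was higher in the file-name males, with 1060, 1508, 746 and 1883 CPM (log2 0.91 ± 0.21, adjusted p = 0.032). Col23a1, a transmembrane collagen, had 8.11, 32.1, 15.3 and 37.3 (log2 1.57 ± 0.30, adjusted p = 0.01), and Lama1, an embryonic laminin chain, had 6, 46, 5 and 17 reads (log2 2.68 ± 0.54, adjusted p = 0.014). With cross as a further term and the sexes of the labels, 1 of the 100 genes was called (Adam7) and 0.873% of all genes.

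Adam7, an ADAM of the epididymis without protease activity, had 0 reads in 3 pools and 180 in the DxB male pool, 54.6 CPM. This is at least 74.8-fold higher than 3 reads in any of the other pools would give. The DxB male pool also held 17 reads of Lcn5, a lipocalin of the epididymis, which the other pools lacked. The epididymis list (3 of 8 genes with an exonic SNP) summed to 0.213, 0, 0 and 60.1 CPM, but Adam7 is itself 1 of the 3 and gives most of that sum. The other genes of the list had 5.16 (Lcn5) and 0.304 CPM (Rnase10) in the DxB male pool, and Rnase10 had 0.213 in the BxD female pool. The part of epididymis tissue in the Adam7 result was not tested.

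Some other marker sums differed by file-name sex too, and the part of cell types in the results by sex was not tested. The stromal genes (4 of 7 with an exonic SNP) summed to 1217, 660, 951 and 789 CPM, and the mesothelial marker Wt1 (1 of 5) to 75.1, 20.6, 43.1 and 16.1, both higher in the file-name females. Within the stromal list Pdgfra did not follow that order, with 700, 342, 358 and 372 CPM. The smooth muscle marker Myh11 (1 of 4) had 705, 552, 631 and 493, also with both file-name females above both males. The female tract genes (2 of 4) summed to 5.55, 3.84, 2.68 and 3.04, which did not split by file-name sex. Macrophage (2 of 7 genes) and endothelial (3 of 6) lists ranged from 290.0 to 561 and from 91.4 to 121 CPM.

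**Figure D5:**
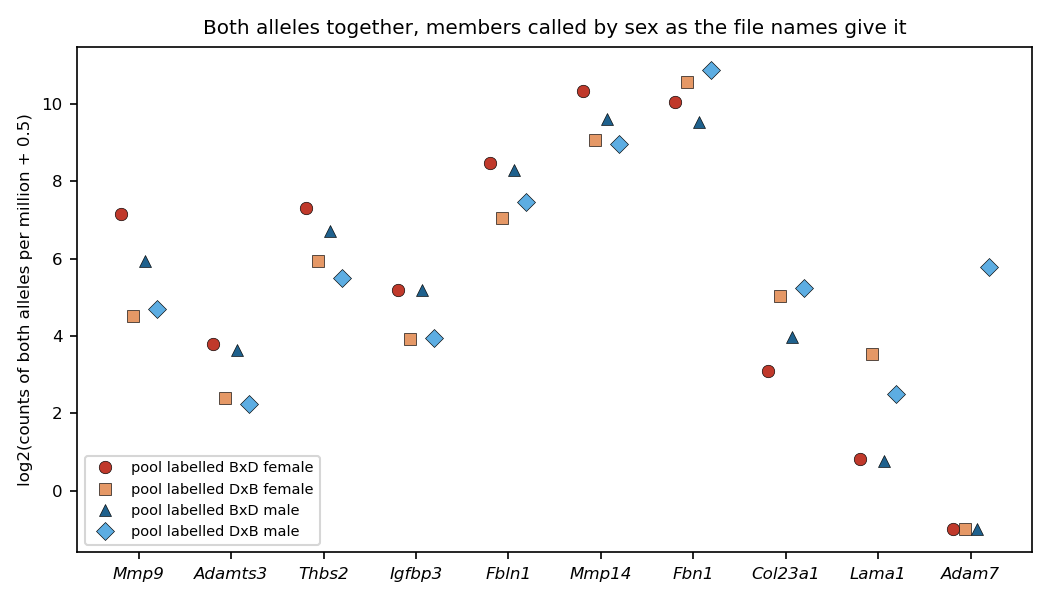
CPM of both alleles as log2(CPM + 0.5) (y axis) for the 10 genes called by sex with the file names, in each of the 4 pools (points, named by their labels). In Fbln1, Igfbp3 and Thbs2 the pools labelled BxD female and BxD male lie above the other pools, and Adam7 is at 0 in every pool but DxB male.

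Of 68 further genes of the matrix and its attachment, 33 had exonic reads. Of these, 2 were B higher (Mfap5 and P4ha2) and 4 D higher (Agrn, Ctsl, Sdc2 and Vcl), and with the block 7 and 9. Of all genes 12.9% were B higher and 4.81% D higher, and with the block 16.1% and 10.8%. The median log2 ratio was 0.07. Mfap5, a microfibril protein that binds fibrillin, had 4579 B and 6 D reads, and here too the listed D base was not checked. Ctsl, the lysosomal protease cathepsin L, had 17864 and 30615 (log2 0.90 ± 0.15, adjusted p = 0.00092), and Agrn, the basement membrane proteoglycan agrin, had 1191 and 1595 (log2 0.55 ± 0.10, adjusted p = 0.0026).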

How the data were processed

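The data are 4 tables of raw allele counts, 1 per RNA pool. The authors aligned 50 bp reads, with mates as single reads, to mm9 with mrsFAST (up to 3 mismatches) and TopHat (version 1 per the submitters' processing notes, which also name CASAVA), kept unique hits and deposited, for each known SNP, the counts of B and D reads without normalization. Whether D variants were masked in the genome is not clear from the methods and supplement, and no removal of PCR copies is named in the sources used here. Intervals and limits of 0 (3 reads) thus cover counting error only.

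Rows given an exon by the authors were used, and in a run of SNPs with gaps of 18 bp or less only the first (45292 SNPs, 8137 genes). 3 counted SNPs of the 100 genes list 1 base for both strains and were kept. Counts were summed per gene, exon or, at intronic SNPs, gene. Tests used edgeR 4.0.16 in R 4.3.3 (TMM, quasi-likelihood, Benjamini-Hochberg over all features, threshold 0.05). SE is the absolute log2 ratio over the square root of F. B and D libraries of a pool share animals, and their deviations from the strain means correlated (r = 0.64, 0.21, 0.63 and 0.14 over 5410 genes), so fits with a block for the pool are given too. Settings tried were DESeq2 1.42.0, RLE or shared library sizes, at least 10 counts, other SNP distances, SNP sets and pool identities, and each pool left out. The fits were tested on simulated counts. Gene places came from GENCODE M1 and sequences from NCBIM37.

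Members, lists and settings were chosen with earlier results of these data known. Named genes are the 12 most read, the called ones (at most 12 each way with 10 or more reads of the weaker allele, and 8 with fewer), those called by parent or sex, those called at exonic and intronic SNPs, and symbols that match by name alone; genes called with the block, at intronic SNPs or by file-name sex were added after their values were seen. Groups come from the labels. p-values measure the spread between 4 pools. Without the block this is the spread of each allele's counts, which includes differences in the level of the gene. With the block it is the spread of the D to B ratio. Marker lists cover adipocytes, stromal cells, endothelium, macrophages, lymphocytes, mesothelium, epididymis, female tract and smooth muscle.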

Additional observations from a re-analysis of the deposited data

Results flagged for a closer look

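In 7 of 83 values by pool tested among the named genes, 1 pool stood apart from the other 3 by Dixon's criterion, which chance passes in about 1 in 20 groups. For the CPM of both alleles these were Adam7 (54.6 in the DxB male pool, 0 elsewhere), Mmp2 (2217 in the BxD female pool), Mmp11 (32.0 in the same pool), Col5a2 (421 in the DxB male pool) and Itgae (19.2 in the pool labelled DxB female). For the D share they were Adam17 (52.7% in the pool labelled BxD male) and Lama5 (42.9% in the DxB male pool), and in both genes the share lay on the same side of 50% in all 4 pools. In the pool of high level the D share was 57.1% for Mmp2, the lowest of its 4 pools, and 19.3% for Mmp11, the highest of its 4.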

How the results depend on the processing

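With 1 pool left out, 7 to 9 of the 100 genes had a strain call in place of 11, and 20 to 26 exons in place of 31, while over all features 13.2% to 15.1% of genes were called in place of 17.7% and 9.32% to 10.6% of exons in place of 12.3%. Pairing by animals, with pool as block, gave 28 genes and 77 exons. Of the calls made without it for the 11 genes at exonic SNPs and the 13 at intronic SNPs, that of Col28a1 at intronic SNPs was the one lost. Leaving out SNPs with under 1% of reads from 1 allele gave 7 genes, also when this was asked only of SNPs with 20 or more reads. Without both pools of conflicting identity, 4 of 97 genes were called at exonic and 4 of 78 at intronic SNPs, against 9.15% and 5.46% of all genes. That setting, the 20-read rule and counting each SNP once were chosen after seeing the data. By sex, 10 genes were called with the file names and 1 with cross as a further term, in place of 0.

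The log2 ratio of D to B changed sign for Igfbp7 without SNPs of under 1% (0.087, and 0.093 with the 20-read rule), for Col3a1 at SNPs with no neighbour within 50 bp (0.058), for Lamc1 with a common library size (-0.013), for Mmp14 (-0.069 with a common library size, -0.079 without neighbours) and for Ltbp3 (-0.097 with a common library size, -0.0038 without neighbours, and -0.0021 and -0.0083 without SNPs of under 1%). The intronic ratio of Col28a1 became 0.063 without SNPs of under 1%. By sex with the labels, values turned with the file names for Fbln1 (-1.11), Igfbp3 (-1.29) and Lama1 (2.68), with cross as a term for Fbn1 (-0.092) and without SNPs of under 1% for Igfbp3 (-0.099). With 1 pool left out, the sex values ran from -1.10 to 0.76 for Adamts3, -0.38 to 1.70 for Col23a1, -0.51 to 0.88 for Fbln1, -0.78 to 0.55 for Fbn1, -0.77 to 0.81 for Igfbp3, -2.30 to 1.27 for Lama1, -0.99 to 0.25 for Mmp14, -1.70 to 0.95 for Mmp9 and -1.30 to 0.29 for Thbs2. Apart from the settings whose own construction leaves fewer pools or SNPs, the cause was not tested. Over the 18 strain settings 360 values for named genes stayed on their side of the threshold with the same direction, 34 fell short of it, 8 passed it and 10 changed sign.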
